A study of Mus musculus with 12 samples.

Results

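The 10 genes described here are targets of the transcription factor ATF4 together with enzymes of serine synthesis and one-carbon metabolism, followed in mouse lung tumours and in the normal lung beside them. They were chosen by symbol: Asns, Chac1, Trib3, Ddit3, Phgdh, Psat1, Shmt2, Mthfd2, Slc7a5 and Slc3a2. These 10 symbols matched 11 of the 78298 gene rows, because Ddit3 names 2 rows. The second Ddit3 row (ENSMUSG00000116429) is a model of 105 bases, all of them inside exons of the first, and it held 0 counts in each of the 12 libraries, so Ddit3 below means ENSMUSG00000025408. All 10 genes passed the filter on low counts and were among the 22190 genes tested.

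RNA was sequenced from 12 mouse libraries in 4 groups of 3, namely normal adjacent lung given VEH, normal adjacent lung given HDM (house dust mite, per the series title), tumour given VEH and tumour given HDM. The tumours are called LLC in the labels, which spell out neither LLC nor VEH, and both tissues were cut out under a microscope, so each library is a mixture of cell types. Strain, sex, age, dose and the number of mice are not given in the sources used here, and replicates are taken as the labels number them, so p-values measure the spread between these pieces of tissue. Library totals ranged from 20608682 to 32765364 counts. Each of 6 library-name prefixes joins 1 normal and 1 tumour library, and for 2 prefixes the treatment labels of both libraries differ. The 4 libraries concerned are replicate 2 of normal VEH and of tumour HDM, which share one prefix, and replicate 3 of normal HDM and of tumour VEH, which share the other. Values without them are given where they change a result. Summed over 8 alveolar epithelium markers, normal libraries held 17340 to 43130 CPM and tumours 107.7 to 8600 CPM. Here CPM (the usual depth-scaled count) was taken after scaling by the trimmed mean of M-values (TMM). In the edgeR test described below, 3 of these 8 markers were called lower in tumours under VEH and 8 under HDM. Sftpc had the highest mean of the 8 in each group.

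ATF4 is made when phosphorylation of the initiation factor eIF2 alpha slows protein synthesis during amino acid shortage, endoplasmic reticulum stress or other strain, a pathway known as the integrated stress response. It turns on genes for the synthesis and uptake of amino acids, and also stress effectors such as Ddit3, Trib3 and Chac1. Serine is built from a glycolytic intermediate by PHGDH, PSAT1 and PSPH. In mitochondria SHMT2 then splits serine into glycine and a one-carbon unit, which MTHFD2 oxidises on the way to formate for purine and thymidylate synthesis. SLC7A5, the light chain of the LAT1 transporter, needs the heavy chain SLC3A2 to reach the cell surface, where the pair imports large neutral amino acids.

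Enzymes for making asparagine, serine and mitochondrial one-carbon units were higher in tumours than in normal lung under both treatments, whereas the stress effectors Chac1, Trib3 and Ddit3 were not called in either comparison. Trib3 under both treatments and Ddit3 under VEH were called higher in a limma fit of length-corrected levels without TMM scaling. That fit also called more of all genes higher than the reported fit. Some alternatives called Chac1 lower, as given below for each gene. In the reported fit the 2 chains of the LAT1 transporter went in opposite directions, though Slc7a5 was not called under VEH. The limma fit called Slc7a5 higher under both treatments and Slc3a2 under neither. Under VEH, 6 of the 10 genes were called with an adjusted p under 0.05 by the quasi-likelihood F-test of edgeR, after Benjamini-Hochberg adjustment, 5 higher and 1 lower in tumour. Of all genes tested, 38.9% were called in that comparison, 18.2% higher and 20.6% lower. Under HDM, 7 of the 10 were called, 6 higher and 1 lower, against 51.9% of all genes, 23% higher and 28.9% lower. The median log2 fold change of the 10 genes was 1.75 under VEH and 2 under HDM, beside -0.11 and -0.08 for all genes tested. Libraries of tumour and normal tissue did not overlap for 7 of the 10 genes under VEH (52.4% of all genes) and for 9 of the 10 under HDM (63.1%). The 10 genes were chosen with earlier results of these data known, so these shares and medians are a description, not a test. In bulk tissue, fewer cells of a type and less RNA per cell cannot be told apart.

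**Figure D1:**
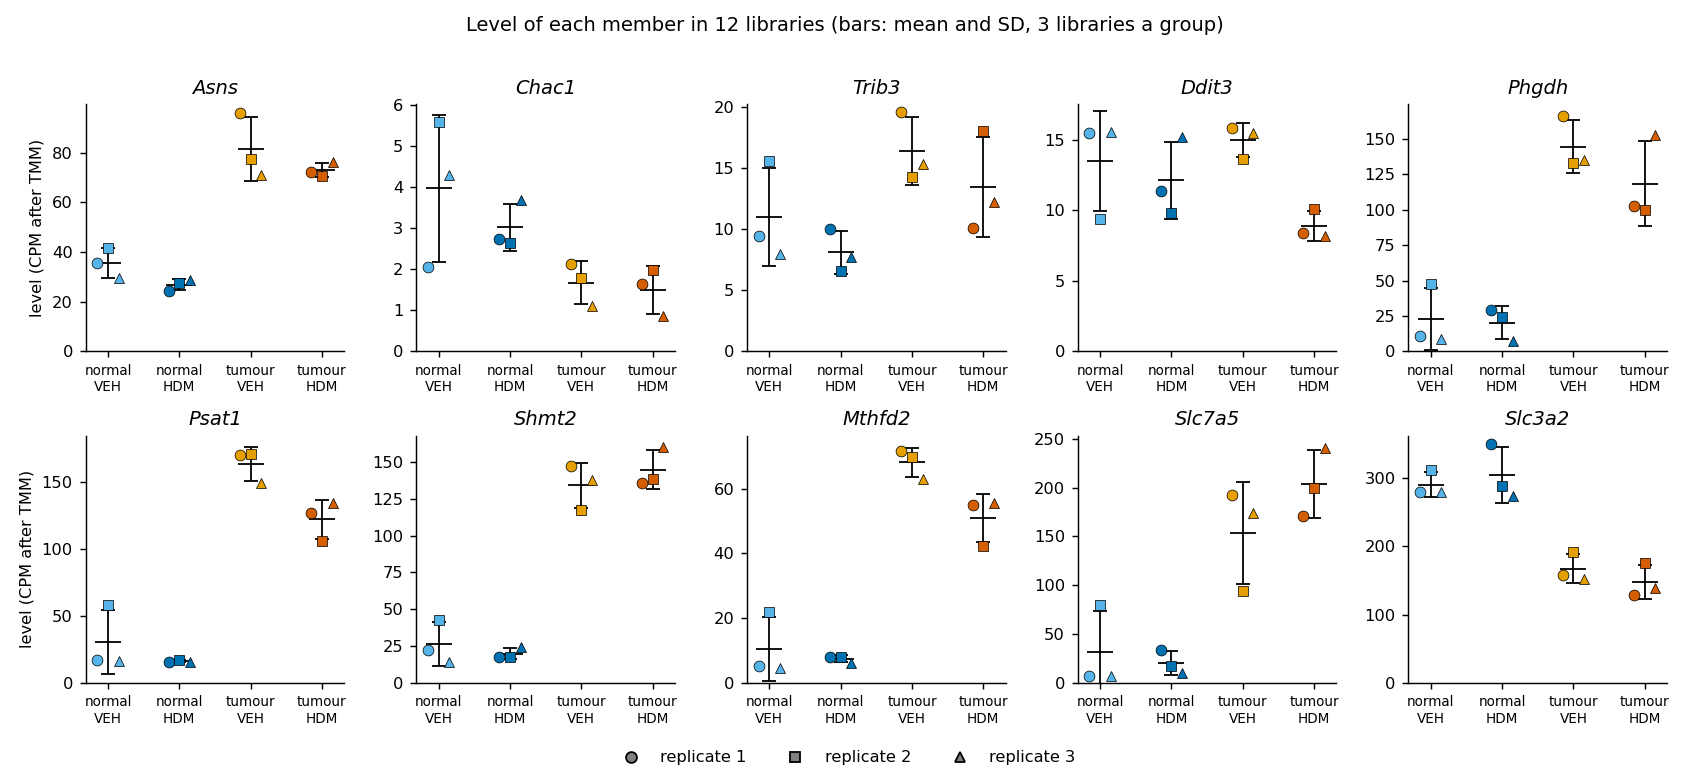
Level of each of the 10 genes (CPM after TMM, linear axis from 0) in the 4 groups, with 1 point per library, a symbol per replicate number, and bars for the mean and SD of 3 libraries (the Slc7a5 bar in normal VEH runs below 0 and is clipped there). Asns, Phgdh, Psat1, Shmt2, Mthfd2 and Slc7a5 sit higher in all 6 tumours than in all 6 normal libraries, Slc3a2 sits lower, and normal VEH replicate 2 stands above the other 5 normal libraries for Phgdh, Psat1, Shmt2, Mthfd2 and Slc7a5.

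Phgdh (ENSMUSG00000053398, protein-coding, chromosome 3, 98220484 to 98255047 on GRCm39) encodes the first and committing enzyme of serine synthesis. Normal VEH libraries 1, 2 and 3 held 10.8, 47.8 and 8.84 CPM, and VEH tumours held 166, 133 and 135 CPM. In HDM libraries it was at 29.0, 24.5 and 7.26 CPM in normal lung and at 103, 100.2 and 153 CPM in tumours. Every tumour was above every normal library, and normal VEH replicate 2 was the highest of the normal ones. Phgdh rose by 2.68 ± 0.66 on the log2 scale under VEH (SE, adjusted p 0.0108) and by 2.55 ± 0.66 under HDM (adjusted p 0.00891). Without normal VEH replicate 2, the VEH change was 3.88, and without normal VEH replicate 3 it was 2.30. The largest adjusted p under VEH with a library left out was 0.0405.

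Psat1 (ENSMUSG00000024640, chromosome 19, 15882039 to 15924701), the aminotransferase of the next step, was steadier in normal lung. Under HDM its normal libraries held 15.8, 17.1 and 15.5 CPM and its tumours 127, 106 and 134 CPM, a rise of 2.92 ± 0.43 (adjusted p 0.000501). Under VEH the normal libraries held 16.6, 58.3 and 16.5 CPM and the tumours 170, 171 and 149 CPM. The VEH rise of 2.42 ± 0.42 (adjusted p 0.00212) was 3.30 without normal VEH replicate 2 and 2.12 without normal VEH replicate 3. Normal VEH replicate 2 was thus the only one of 6 normal libraries above 17.1 CPM. Psph, the phosphatase that completes the pathway and is not one of the 10 genes, also rose, by 0.65 ± 0.17 under VEH (adjusted p 0.0147) and 0.83 ± 0.17 under HDM (adjusted p 0.0029).

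Shmt2 (ENSMUSG00000025403, chromosome 10, 127352266 to 127358323), the mitochondrial serine hydroxymethyltransferase, was at 22.0, 42.7 and 13.9 CPM in normal VEH and 147, 118 and 138 CPM in VEH tumours. Under HDM it was at 17.6, 17.6 and 24.0 CPM in normal lung and 136, 139 and 160 CPM in tumours. The groups did not overlap under either treatment, and the tumours lay within a narrow band compared with their distance from normal lung. The rises were 2.35 ± 0.34 under VEH (adjusted p 0.000834) and 2.88 ± 0.34 under HDM (adjusted p 0.000182). The VEH rise was 2.90 without normal VEH replicate 2 and 2.05 without normal VEH replicate 3. Ndufa4l2 overlaps Shmt2 on the opposite strand by 727 exon bases in the reference annotation, with 4388 counts in all against 26029, and although the library protocol marks the strand, whether counting used it is not given in the sources used here.

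Mthfd2 (ENSMUSG00000005667, chromosome 6, 83282673 to 83302890), the mitochondrial dehydrogenase and cyclohydrolase that acts after SHMT2, had low levels in normal lung. These were 5.09, 21.9 and 4.46 CPM under VEH and 7.91, 8.08 and 6.11 CPM under HDM. Tumours held 71.7, 69.8 and 63.0 CPM under VEH and 54.95, 42.2 and 55.5 CPM under HDM. Even the highest normal library stayed below the lowest tumour. Mthfd2 rose by 2.69 ± 0.52 under VEH (adjusted p 0.00337) and by 2.79 ± 0.53 under HDM (adjusted p 0.00176). The VEH rise was 3.84 without normal VEH replicate 2 and 2.33 without normal VEH replicate 3.

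Asns (ENSMUSG00000029752, chromosome 6, 7671667 to 7728461) encodes asparagine synthetase, which makes asparagine from aspartate and glutamine, and its promoter is the textbook site of ATF4 action. It was at 35.4, 41.6 and 29.3 CPM in normal VEH and 95.8, 77.4 and 71.0 CPM in VEH tumours. Under HDM it was at 24.3, 27.6 and 28.7 CPM in normal lung and 72.4, 70.8 and 76.2 CPM in tumours. The groups did not overlap and replicates lay close together, so Asns had the smallest standard errors among the genes that rose. It rose by 1.20 ± 0.16 under VEH (adjusted p 0.000612) and 1.45 ± 0.16 under HDM (adjusted p 0.000136). The lncRNA 1700012J15Rik overlaps it on the opposite strand, with 1044 counts against 17206.

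The promoters are shown because ATF4 acts through a short element, the C/EBP-ATF response element, whose core was searched as TGATGNAA on both strands. RefSeq promoter windows on GRCm38.p6, running from 250 bases before the start site to 50 after it, were held for 9 of the 10 genes, all but Slc7a5. Of 32851 windows of this length, 3.97% held the core, and 0.89% held the stricter form TGATGCAA. Among the 9 genes, 3 held a match: Asns, Chac1 and Trib3, of which only Chac1 held the stricter form. The stretches below give the 120 bases up to the start site of Asns (chr6:7693210-7693329, minus strand), 120 bases of the Chac1 promoter ending 130 bases before its start site (chr2:119350993-119351112, plus strand) and 30 bases around a match after the Trib3 start site (chr2:152344028-152344057, minus strand). Each runs 5′ to 3′ along the gene with the match in capitals.
Asns: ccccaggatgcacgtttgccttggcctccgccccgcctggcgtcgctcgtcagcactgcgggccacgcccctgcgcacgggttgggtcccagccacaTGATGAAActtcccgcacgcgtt
Chac1: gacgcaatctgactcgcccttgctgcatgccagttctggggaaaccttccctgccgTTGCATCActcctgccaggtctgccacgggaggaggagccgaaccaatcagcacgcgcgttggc
Trib3: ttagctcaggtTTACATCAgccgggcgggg
The match starts 23 bases before the start site in Asns and 193 before it in Chac1, and in Trib3 it starts at base 15 after it. In Chac1 and Trib3 it lies on the opposite strand. A match in these letters is a description of the window, and the genes with no match in it include Phgdh, Psat1, Shmt2 and Mthfd2, which rose in tumours.

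Chac1 (ENSMUSG00000027313, chromosome 2, 119180757 to 119184866) encodes an enzyme that degrades glutathione and is among the strongest ATF4 targets in stressed cells. It had the lowest level of the 10 genes, with 24 to 178 counts per library. Normal lung held 2.05, 5.60 and 4.29 CPM under VEH and 2.74, 2.64 and 3.68 CPM under HDM. Tumours held 2.12, 1.79 and 1.11 CPM under VEH and 1.64, 1.98 and 0.849 CPM under HDM. Normal and tumour libraries overlapped under VEH, and all HDM tumours were below all normal HDM libraries. The log2 fold change was -1.25 ± 0.47 under VEH (adjusted p 0.0544) and -1.02 ± 0.47 under HDM (adjusted p 0.0878), and neither passed the threshold. Over 16 alternative settings the adjusted p ranged from 0.0175 to 0.453 under VEH and from 0.0391 to 0.472 under HDM, with 4 and 2 of them below 0.05. Leaving out normal VEH replicate 1 gave -1.56 under VEH (adjusted p 0.03).

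Trib3 (ENSMUSG00000032715, chromosome 2, 152179337 to 152191958), a pseudokinase that dampens ATF4 signalling, was at 9.45, 15.6 and 7.96 CPM in normal VEH and 19.5, 14.3 and 15.3 CPM in VEH tumours. Under HDM it was at 10.04, 6.57 and 7.73 CPM in normal lung and 10.1, 18.0 and 12.3 CPM in tumours. The VEH groups overlapped through normal VEH replicate 2, and in HDM libraries the highest normal and the lowest tumour were almost level. Its log2 fold changes, 0.57 ± 0.32 (adjusted p 0.164) and 0.73 ± 0.32 (adjusted p 0.0741), did not pass. In the limma fit they were 1.10 and 1.27, both called (adjusted p 0.0177 and 0.00621). Over the 16 alternatives the adjusted p ranged from 0.0177 to 0.399 under VEH and from 0.00621 to 0.25 under HDM, with 3 below 0.05 in each. Without normal VEH replicate 2 the VEH value was 0.92 (adjusted p 0.0427), and without tumour HDM replicate 1 the HDM value was 1.01 (adjusted p 0.0414).

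Ddit3 (chromosome 10, 127124268 to 127132163) encodes CHOP, a transcription factor tied to cell death after prolonged stress. It was at 15.5, 9.38 and 15.6 CPM in normal VEH and 15.9, 13.6 and 15.5 CPM in VEH tumours. Under HDM it was at 11.4, 9.82 and 15.2 CPM in normal lung and 8.42, 10.1 and 8.19 CPM in tumours. Tumour and normal libraries overlapped under both treatments, and the log2 fold change was 0.15 ± 0.25 under VEH (adjusted p 0.646) and -0.45 ± 0.25 under HDM (adjusted p 0.159). The 95% intervals, -0.43 to 0.73 and -1.02 to 0.13, exclude rises of the fitted size seen for Phgdh and Psat1. In the limma fit Ddit3 was called higher under VEH (0.72, adjusted p 0.0186), and its HDM value changed sign to 0.22. In the reference annotation Mars1 overlaps Ddit3 on the opposite strand by 3576 exon bases and has 22802 counts against 3842, so the Ddit3 counts are uncertain.

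The light chain Slc7a5 (ENSMUSG00000040010, chromosome 8, 122607884 to 122634433) varied more between normal libraries than any other of the 10 genes. It was at 6.74, 80.0 and 6.48 CPM in normal VEH and 33.9, 17.4 and 9.94 CPM in normal HDM. Tumours held 193, 93.5 and 174 CPM under VEH and 171, 199 and 240.4 CPM under HDM. Every tumour was above every normal library, though tumour VEH replicate 2 was only a little above normal VEH replicate 2. Slc7a5 rose by 3.32 ± 0.92 under HDM (adjusted p 0.0125; 0.0515 without a filter on low counts, the highest of the 16 alternatives, whose lowest was 0.00019). Under VEH its log2 fold change was 2.30 ± 0.89 and did not pass (adjusted p 0.0613). Without normal VEH replicate 2 it was 4.54 (adjusted p 0.000431), and without the 4 libraries of conflicting prefixes also 4.54 (adjusted p 0.00386). Without normal VEH replicate 3 the VEH log2 fold change was 1.82. Over the 16 alternatives the adjusted p under VEH ranged from 0.000431 to 0.172, with 5 of them below 0.05. The limma fit was among those 5.

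The heavy chain Slc3a2 (ENSMUSG00000010095, chromosome 19, 8684245 to 8701108) was lower in tumours. Normal lung held 279.5, 312 and 280.1 CPM under VEH and 351, 288.5 and 273 CPM under HDM, and tumours 158, 191 and 152 CPM under VEH and 129, 176 and 138 CPM under HDM. The groups did not overlap. Slc3a2 fell, with log2 fold changes of -0.80 ± 0.16 under VEH (adjusted p 0.00377) and -1.04 ± 0.16 under HDM (adjusted p 0.000571). The VEH call was lost without the 4 libraries of conflicting prefixes (-0.58, adjusted p 0.0598). Both calls were lost in a limma fit of log2(TPM + 1), where TPM is the length-corrected share of a library, from the counts and the deposited gene lengths (-0.23, adjusted p 0.33, and -0.38, adjusted p 0.102). On that scale the median of all genes moved to 0.34 under VEH and 0.45 under HDM, so Slc3a2 stayed below the median gene. The smallest adjusted p over the 16 alternatives was 3.79e-05 under VEH and 1.06e-08 under HDM. The lncRNA Snhg1 overlaps it on the opposite strand, with 6162 counts against 72033.

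**Figure D2:**
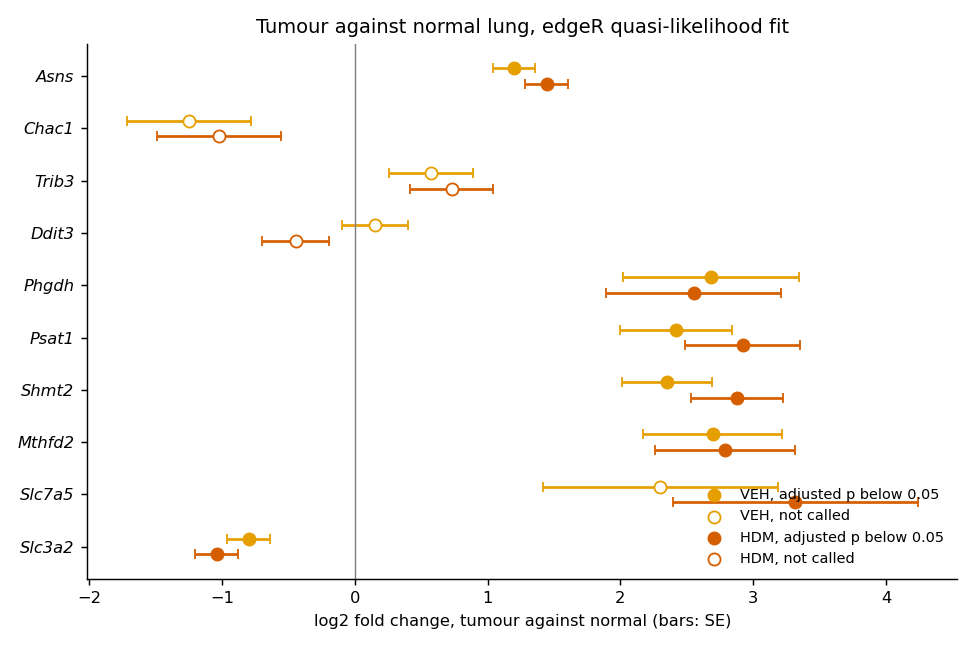
Log2 fold change of tumour against normal lung for the 10 genes (x axis, bars are SE) under VEH (light orange) and HDM (dark orange), with filled points for an adjusted p below 0.05. Asns, Phgdh, Psat1, Shmt2 and Mthfd2 are filled and to the right of 0 under both treatments, Slc3a2 is filled and to the left, Slc7a5 is filled under HDM only, and Chac1, Trib3 and Ddit3 are open.

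Compared per length, the 10 genes had a different order in tumour and in normal lung. In normal VEH lung Slc3a2 stood far above the rest at 158 ± 37.4 TPM (SD, n = 3). Asns followed at 25.1 ± 8.25 TPM, and the libraries of Asns, Phgdh, Slc7a5, Shmt2, Psat1, Ddit3 and Trib3 overlapped with those of their neighbours in the order. In VEH tumours Phgdh led at 165 ± 31.5 TPM, followed by Slc3a2 (132 ± 2.07), Shmt2 (122 ± 24.8), Slc7a5 (119 ± 49.2), Psat1 (108 ± 8.59) and Asns (83.9 ± 16.7), and again neighbours overlapped. Below them Mthfd2 (54.9 ± 5.24 TPM) overlapped with neither neighbour. Ddit3 (24.8 ± 4.39) and Trib3 (21.8 ± 5.12) overlapped with each other, and Chac1 (2.85 ± 0.88 TPM) was lowest. In HDM tumours Slc7a5 led at 186 ± 31.5 TPM, with Phgdh (162 ± 42.4), Shmt2 (158 ± 16.2) and Slc3a2 (142 ± 18.4) overlapping below it. In normal HDM lung Slc3a2 again led at 186 ± 32.6 TPM, and Asns followed at 21.1 ± 1.99 TPM.

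Ratios within a library do not depend on how libraries were scaled. The TPM ratio of Slc7a5 to Slc3a2 lay between 0.022 and 0.244 in normal VEH and between 0.0346 and 0.0921 in normal HDM libraries. In tumours it lay between 0.465 and 1.16 under VEH and between 1.08 and 1.65 under HDM. The light chain message was thus well below the heavy chain message in each normal library and at 0.465 or more of it in each tumour. Mitochondrial enzymes also shifted against their cytosolic counterparts. Shmt2 to Shmt1 went from 1.23 to 4.70 in normal VEH libraries to between 4.98 and 7.05 in VEH tumours, and from 1.34 to 2.55 in normal HDM libraries to between 6.64 and 9.83 in HDM tumours. Mthfd2 to Mthfd1, the latter being the cytosolic enzyme, was 0.139 ± 0.134 in normal VEH and 0.845 ± 0.00307 in VEH tumours, and 0.0906 ± 0.0148 and 0.634 ± 0.0821 under HDM (SD, n = 3). Phgdh to Psph was 0.97 to 4.07 in normal VEH and 8.19 to 9.47 in VEH tumours. The ratio of the first enzyme's message to that of the last was thus higher in each VEH tumour than in each normal VEH library. With 3 libraries against 3, an exact two-sided permutation test cannot go below 0.1, and none was run on the ratios.

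**Figure D3:**
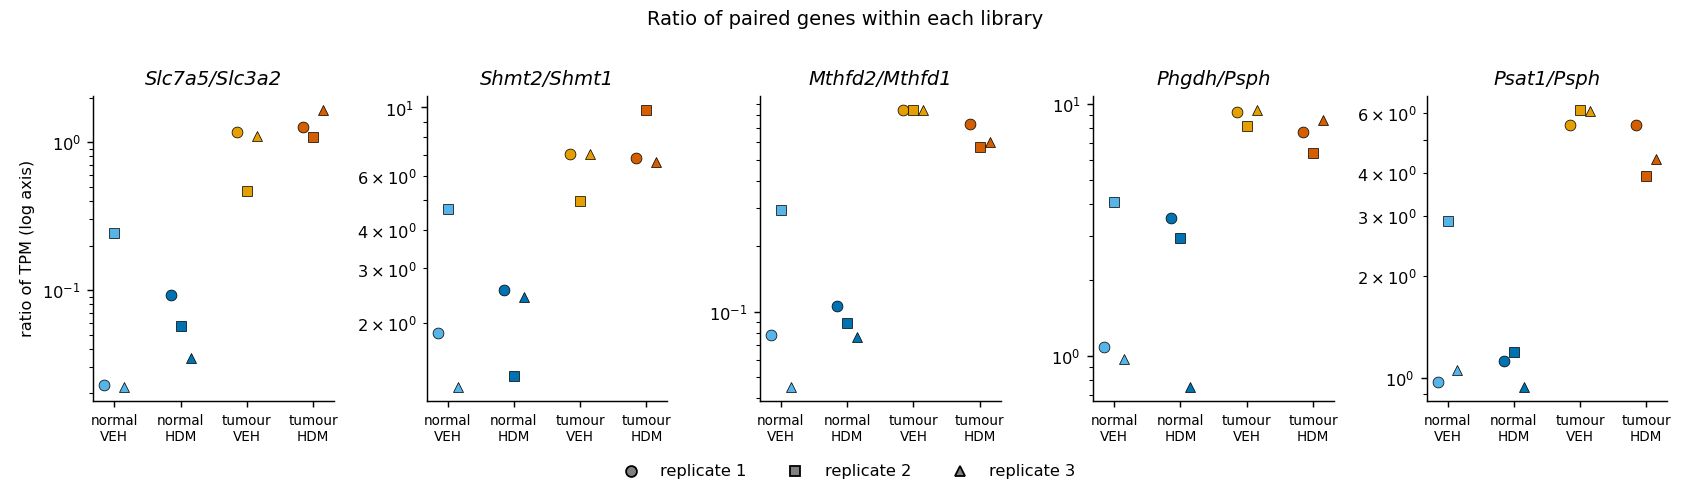
Ratio of the TPM of 2 genes within each library (log axis), 1 point per library, for 5 gene pairs in the 4 groups. In each pair the tumours of a treatment lie above its normal libraries, and normal VEH replicate 2 is the highest of the normal libraries.

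HDM and VEH did not differ detectably for any of the 10 genes, in tumours or in normal lung. In tumours 0 of the 10 were called by edgeR, against 0.0946% of all genes, and 0 by the DESeq2 Wald test, against 5.91% of all genes. An unadjusted edgeR p below 0.05 was seen for 3698 of the 22190 genes tested, and for 1 of the 10. That gene was Ddit3, at 8.19 to 10.1 CPM in HDM and 13.6 to 15.9 CPM in VEH tumours, which differed by a log2 value of -0.75 ± 0.25 (adjusted p 0.213; over the 16 alternatives 0.0523 to 0.951). Psat1 and Mthfd2 were also lower in each HDM tumour than in each VEH tumour, by log2 values of -0.42 ± 0.40 and -0.42 ± 0.49 (adjusted p 0.633 and 0.697). These 3 genes without overlap compare with 10.7% of all genes that were lower without overlap. For Phgdh, Shmt2 and Slc7a5 in tumours the 95% intervals of the log2 difference were -1.72 to 1.15, -0.63 to 0.85 and -1.54 to 2.35, so differences of these sizes cannot be told from none.

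In normal lung 0 of the 10 were called between HDM and VEH by edgeR, against 0% of all genes, and 0 by DESeq2, against 0.194% of all genes. An unadjusted edgeR p below 0.05 was seen for 1230 of the 22190 genes tested, and for 2 of the 10, Asns and Psat1. Asns was lower in each HDM than in each VEH library, at -0.40 ± 0.16 (adjusted p 0.887), the only one of the 10 without overlap, where 5.85% of all genes were lower without overlap. Psat1 was at -0.92 ± 0.41 (adjusted p 0.887), and without normal VEH replicate 2 at -0.04. Leaving out that library also turned the HDM to VEH values of Phgdh (from -0.16 to 1.04), Shmt2 (from -0.41 to 0.14), Mthfd2 (from -0.52 to 0.63) and Slc7a5 (from -0.61 to 1.63). None of these passed the threshold with or without it. The interaction of tissue and treatment, which asks whether the tumour to normal difference depends on HDM, was called for 0 of the 10 genes and 0% of all genes by edgeR, and for 0 of the 10 and 1% of all genes by DESeq2, with edgeR adjusted p-values of the 10 from 0.585 to 0.977. At an unadjusted edgeR p below 0.05 the interaction had 0 of the 10 and 2084 of the 22190 genes tested.

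The rest of the pathway was read from lists of stress regulators, further ATF4 targets, transporters and metabolic enzymes totalling 71 further genes, of which 69 were tested. Of these 25 were higher and 13 lower in VEH tumours, and 32 higher and 15 lower in HDM tumours, with median log2 fold changes of 0.36 and 0.62. Over all genes tested, 18.2% were called higher and 20.6% lower under VEH, and 23% and 28.9% under HDM, and the counts of each list below stand against these shares. In the limma fit of log2(TPM + 1) the 69 genes gave 38 higher and 8 lower under VEH and 43 higher and 10 lower under HDM. That fit called more of all genes higher, and fewer lower, than edgeR did, with its totals given in the closing section. Limma counts here and below stand against those totals, not against the shares above. The factor itself, Atf4, was at 146 ± 8 CPM in normal VEH, 173 ± 19.1 in VEH tumours, 120 ± 47.3 in normal HDM and 149 ± 25.3 in HDM tumours (SD, n = 3). Its log2 fold changes of 0.24 ± 0.24 and 0.31 ± 0.24 did not pass (adjusted p 0.424 and 0.293). In TPM, which has no TMM scaling, Atf4 was higher in all 6 tumours (172.7 to 255) than in all 6 normal libraries (71.2 to 165). The share of all genes that did so is not given here. The limma fit called Atf4 higher, by 0.81 ± 0.27 under VEH and 1.02 ± 0.27 under HDM (adjusted p 0.029 and 0.00664). On that scale the median of all genes was higher in tumours too, as given for Slc3a2. Whether Atf4 was called thus depended on this scale. Among ATF4 and 6 partner factors, 0 rose and 1 fell under VEH, and 0 rose and 2 fell under HDM, Jund being lower in both (-0.66 and -0.81). In the limma fit Jund was not called (-0.10 and -0.17, adjusted p 0.716 and 0.49), and this list had 2 genes higher and 0 lower under each treatment. ATF4 is controlled mainly through translation, which RNA levels do not measure. Of 7 kinases and regulators of eIF2 alpha, 4 rose and 1 fell under each treatment, among them Eif2s1, the eIF2 alpha subunit itself (1.49 and 1.78), and Eif2ak2, the kinase PKR that interferon also induces (1.66 and 1.26). The one that fell, Ppp1r15a (-0.94 and -1.05), encodes the stress-induced phosphatase subunit GADD34, and it was not called in the limma fit (-0.37 and -0.39, adjusted p 0.317 and 0.264).

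In the reported fit more of the other stress targets linked to ATF4 fell than rose. Of 14 tested, 1 rose and 6 fell under VEH, and 2 rose and 6 fell under HDM, with medians of -0.65 and -1.21. Ppp1r15a belongs to this list too and is counted again among the 6. In the limma fit 4 rose and 5 fell under VEH and 5 rose and 5 fell under HDM. Aldh18a1, which starts proline synthesis, rose by 2.37 and 2.56, whereas the lipoprotein receptor gene Vldlr (-3.08 and -4.43) and the pseudokinase gene Trib2 (-1.72 and -2.76) fell. Of 16 folate and one-carbon genes outside the 10, 6 were higher and 1 lower under VEH and 11 were higher and 1 lower under HDM. In the limma fit 11 were higher and 1 lower under VEH, and 13 higher and 1 lower under HDM. Mthfd1l, the mitochondrial enzyme that releases formate, rose by 2.27 ± 0.53 and 3.07 ± 0.55 (adjusted p 0.00824 and 0.00131), and the folate carrier Slc19a1 by 1.90 and 2.56. The cytosolic Mthfd1 had log2 fold changes of 0.02 ± 0.17 and -0.02 ± 0.17 (adjusted p 0.947 and 0.919), and was called higher in the limma fit (0.59 and 0.63, adjusted p 0.0269 and 0.0159). Aldh1l1, which burns off cytosolic one-carbon units, fell (-2.25 and -4.09). All 6 enzymes of purine synthesis, which uses these units, rose under both treatments (medians 1.25 and 1.27), with Atic at 1.74 and 1.94.

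Among 11 other amino acid transporters tested, 4 rose and 3 fell under VEH and 4 rose and 4 fell under HDM, where 38.9% and 51.9% of all genes were called. The limma fit gave 5 higher and 1 lower under VEH, and 5 higher and 3 lower under HDM. The cationic carrier Slc7a1 rose by 1.86 under each treatment, and Slc43a1, a further carrier of large neutral amino acids, fell (-2.60 and -2.38). The cystine carrier Slc7a11, an ATF4 target, had log2 fold changes of -0.29 ± 0.78 and 1.10 ± 0.79 and did not pass (adjusted p 0.781 and 0.263). Of 9 other serine and glycine genes, 4 rose and 2 fell under VEH and 5 rose and 2 fell under HDM. By limma 5 rose and 1 fell under VEH, and 6 rose and 1 fell under HDM. Shmt1, the cytosolic counterpart of Shmt2, rose by 0.99 ± 0.26 and 0.95 ± 0.26 (adjusted p 0.0144 and 0.0115). Of 12 endoplasmic reticulum chaperones and genes of the other stress branches, 5 rose under VEH, and 5 rose and 3 fell under HDM (9 rose and 0 fell under each treatment in the limma fit), with Pdia4, a disulfide isomerase, at 1.32 and 1.12.

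**Figure D4:**
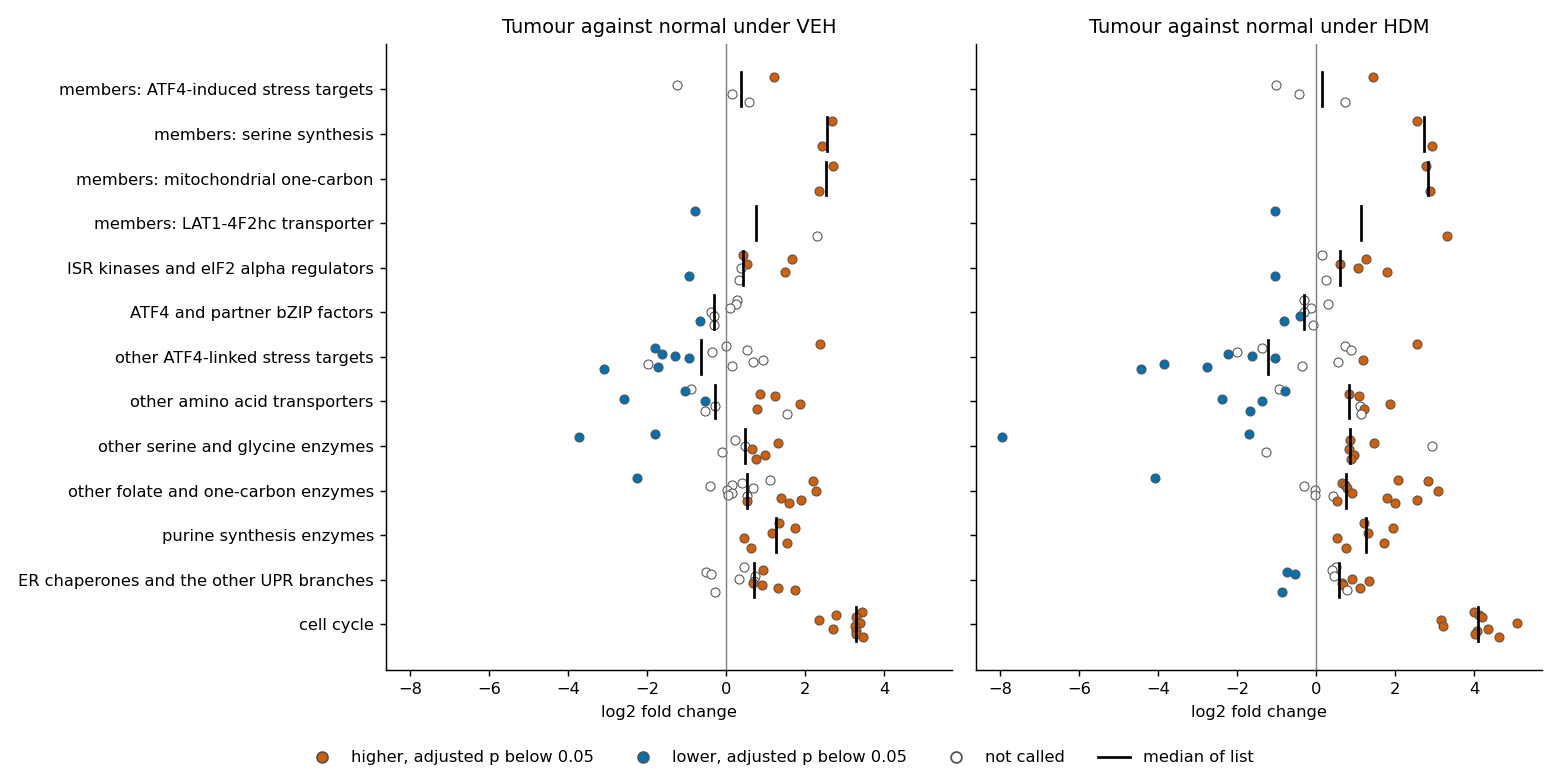
Log2 fold change of tumour against normal lung (x axis) for each tested gene of 13 lists, under VEH (left) and HDM (right), with orange and blue for genes called higher and lower, white for genes not called, and a bar at the list's median. Serine synthesis, mitochondrial one-carbon and cell cycle genes lie to the right, and other ATF4-linked stress targets have medians of -0.65 and -1.21. The leftmost HDM point is Cbs, which had 3 counts or fewer in every HDM tumour, so its fitted change is no bound.

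Other features also differed between libraries, and neither their relation to these genes nor their part in the results was tested. Over 10 cell cycle genes, all 10 of which rose under both treatments (medians 3.28 and 4.11), the summed level was 48.6 to 234 CPM in normal VEH, 49.1 to 68.3 in normal HDM, 939.5 to 1064 in VEH tumours and 692 to 1354 in HDM tumours. The 234 CPM belonged to normal VEH replicate 2, which also held the most Mki67 of the normal libraries (33.7 CPM, against 7.56 to 12.8 in the other 5). That library had 3110 CPM of fibroblast and matrix markers against 796 to 2163 in the other normal libraries, 797 CPM of neutrophil markers against 18.4 to 556, and 1148 CPM of endothelial markers against 2100 to 2591. Tumours held 5433 to 13920 CPM of fibroblast and matrix markers, of which 3 of 6 rose under each treatment (Col3a1, Dcn and Lum), Col1a2 fell (-2.18 and -2.27) and Col1a1 and Pdgfra did not pass. Col3a1 alone had a mean of 9245 CPM in HDM tumours. Tumours held 10.9 to 65.1 CPM of neutrophil markers. Tumour VEH replicate 2 had 19650 CPM of airway epithelium markers against 3.52 to 6168 in the other tumours, and 8600 CPM of alveolar markers against 107.7 to 2524. It was lowest of the tumours for Slc7a5 and Shmt2, but highest for Psat1 (171.1 CPM) and Slc3a2 (191.4 CPM). For the rest of the 10 genes it lay between other tumours. Endothelial markers summed to 89.7 to 443.6 CPM in tumours. Markers of T and NK cells summed to 35.7 to 57.3 CPM in VEH tumours and 1.97 to 13.6 CPM in HDM tumours, without overlap. By edgeR, 0 of these 6 markers were called between HDM and VEH tumours. Ddit3, Psat1 and Mthfd2 were also lower in HDM tumours without overlap, as were 10.7% of all genes, and a link was not tested. Collagen and matrix genes are named here after their values were seen.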

How the data were processed

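Raw counts for each Ensembl gene in 12 libraries, beside gene lengths, were deposited by the authors in 1 table, per the file headers. The submitters' processing notes name Trim Galore, STAR, featureCounts, Subread and the mm39 build. Versions, annotation and strand setting are not given in the sources used here. Symbols and coordinates come from GENCODE M39 (GRCm39). Of 78298 identifiers, 78168 matched, and the other 130 carried 0.143% of counts. For the 10 genes, gene positions follow that release, whose exon lengths differ from the deposited ones.

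The fit used edgeR 4.0.16 under R 4.3.3: filterByExpr (minimum count 10), TMM scaling, a coefficient per group over all 12 libraries, a robust quasi-likelihood F-test (two-sided) and Benjamini-Hochberg adjustment over 22190 genes. SE is the log2 change divided by the square root of F, and 95% intervals use 8 residual degrees of freedom. The fit was also run on simulated counts with few changed genes and the same spread for every gene. That setting differs from these libraries, so it does not test the scaling used here. Alternatives used DESeq2 1.42.0, limma 3.58.1 on log2(TPM + 1) (added after the values were seen, for the 10 genes and for the other lists), other scalings and filters, blocks and left-out libraries. Within each group, libraries lay further apart than sampling of reads allows (chi-square per degree of freedom at least 32.4).

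The 10 genes and all lists were chosen with earlier results of these data known. All 10 genes are named. From other lists up to 4 genes with the largest called change could be named, plus Atf4, Psph, Mthfd1l, Shmt1, Mthfd1, Slc7a11 and Mki67. Promoter sequences are RefSeq's (GRCm38.p6), used only for letters and their own coordinates.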

Additional observations from a re-analysis of the deposited data

How the results depend on the processing

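Asns, Phgdh, Psat1, Shmt2 and Mthfd2 were called higher in tumours under both treatments in 16 of 16 alternatives. The number of the 10 genes called ranged from 6 to 8 in each tumour comparison and was 0 in the other 3 comparisons. Of 50 values (10 genes in 5 comparisons), 21 changed sign under some alternative, and 0 of those 21 were called as reported. Chac1 had 24 to 178 counts per library, the fewest of the 10 genes.

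Over all genes, the count called between HDM and VEH tumours was 21 as reported, and 8 with library-size scaling, 52 with no filter, 53 with at least 10 counts, 1311 by DESeq2, 0 with only the compared groups, 1 with a replicate block, 0 with a prefix block, 0 without the 4 libraries of conflicting prefixes, 35 by limma on log2(TPM + 1), and 0 to 24 when a library was left out. In normal lung it was 0 as reported, 43 by DESeq2 and 4 by limma. For the interaction it was 0, and 222 by DESeq2 and 0 to 6 with a library left out. Tumour against normal under VEH gave 8624, 5603 without the 4 libraries and 5733 to 9070 with a library left out. The limma fit called 7964 higher and 3209 lower under VEH, against 4045 and 4579, and 9727 and 4647 under HDM, against 5110 and 6402. The causes were not tested.

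The labels do not say what a replicate number shares, and correlations of deviations were -0.355 to 0.303 over 18 pairs of 1 number (8 over 0.1) and -0.219 to 0.179 over 6 pairs of 1 prefix (3 over 0.1), so neither was used to pair libraries in the reported fit. Whether a prefix marks 1 animal cannot be told from these values. With a replicate block, the Mthfd2 interaction was -0.051. With a prefix block, HDM against VEH in normal lung was 0.39 for Chac1 and 0.17 for Ddit3, in tumours -0.33 for Shmt2 and -2.05 for Slc7a5, and the interaction was -0.57 for Chac1, -0.50 for Trib3, -0.38 for Psat1, -1.09 for Mthfd2 and -1.27 for Slc7a5. Without the 4 libraries, normal lung gave 1.45 for Phgdh, 0.75 for Mthfd2 and 1.97 for Slc7a5, and the interaction -0.41 for Chac1, -0.54 for Trib3, -0.38 for Psat1, -1.10 for Mthfd2 and -1.45 for Slc7a5. By limma, Ddit3 was 0.22 in tumour against normal under HDM and called under VEH (0.72, adjusted p 0.0186), normal lung gave 0.044 for Ddit3, 0.21 for Phgdh and 0.30 for Slc7a5, tumours 0.13 for Asns, 0.064 for Chac1 and 0.10 for Slc3a2, and the Mthfd2 interaction was -0.14.

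With a library left out, HDM against VEH in normal lung ranged from -0.048 to 0.13 for Slc3a2, -0.54 to 1.04 for Phgdh, -0.71 to 0.14 for Shmt2, -0.88 to 0.63 for Mthfd2 and -1.19 to 1.63 for Slc7a5. In tumours Chac1 ranged from -0.42 to 0.15, and under VEH Ddit3 in tumour against normal from -0.05 to 0.27. The interaction ranged from -1.33 to 0.25 for Phgdh, -0.10 to 0.57 for Chac1, -0.19 to 0.34 for Trib3, -0.39 to 0.80 for Psat1, -0.026 to 0.83 for Shmt2, -1.05 to 0.46 for Mthfd2 and -1.22 to 1.59 for Slc7a5.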
